A study of Mus musculus with 68 samples.

Results

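The cytosolic ribosomal protein genes were followed through mouse embryos cloned by somatic cell nuclear transfer (SCNT), from the donor cumulus cells to the blastocyst. Members were the gene symbols that start with Rpl or Rps and a number, with the endings a, x, l, y, al or l1 allowed, together with Rpsa, Rplp0, Rplp1 and Rplp2. The rule found 84 of the 24421 genes listed in every table, 52 of them named for the large ribosomal subunit and 32 for the small one, and 8 of the 84 are paralogues named after another member (Rpl3l, Rpl7l1, Rpl10l, Rpl22l1, Rpl36al, Rpl39l, Rps4l and Rps27l). Smart-seq2 libraries of polyadenylated RNA were made from about 10 blastomeres each. Cumulus cells (CC, n = 3) of BDF1 mice were the nuclear donors. They were injected into enucleated MII oocytes of BDF1 females (8 to 10 weeks old in the study's methods), and the reconstructed embryos were activated with SrCl2 in the presence of cytochalasin B. The cloned embryos, otherwise untreated, were sampled at 6 hours post activation (6 hpa) and 14 hpa, at the early 2-cell (E2C), late 2-cell (L2C), 8-cell (8C) and morula stages (n = 6 each), at the blastocyst stage in its 2 parts, the ICM (inner cell mass, the source of the embryo proper) and the TE (trophectoderm, the source of placental cells; n = 6 each), and at the 4-cell stage (4C, n = 5). A second set of 12 libraries came from fertilized embryos of C57BL/6j parents, whose zygotes were injected with a morpholino oligonucleotide (MO) against Max, an MO against Mcrs1 or a random control MO, with 2 ICM and 2 TE libraries per injection. A morpholino lowers a protein by blocking its mRNA's translation or splicing, so it is a knockdown and not a deletion. For these libraries the paper gives a higher concentration for the control MO than for the Max or Mcrs1 MO. The part of this difference in dose in the MO results was not tested. The labels call the cloned embryos NT and the fertilized ones NF. Nothing in the labels says whether libraries of a group came from separate experiments, so the p-values below measure the spread between these libraries.

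The ribosome joins a large and a small subunit, each built from ribosomal RNA and many proteins that are needed in equal numbers. The genes of these proteins are spread over the chromosomes (4 of the 84 members lie on chromosome X), are among the most highly expressed of growing cells, and most of their mRNAs begin with a C followed by a run of pyrimidines, the 5′ terminal oligopyrimidine (TOP) tract, through which growth signals control their translation. A grown mouse oocyte carries a store of ribosomes and of maternal mRNA, degrades much of that mRNA around the 2-cell stage, and then depends on transcription from the embryo's own genome. A few ribosomal proteins have a paralogue that is used in particular tissues: Rpl39l and Rpl10l are best known from male germ cells, Rpl3l from heart and skeletal muscle, and Rps27l as a gene induced by the p53 protein.

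The start-site sequences of 7 members on which the results turn are printed here because the TOP tract sits at that place. They are the reference sequence of RefSeq (GRCm38.p6), 10 bases before and 20 bases from the start site, read 5′ to 3′ along the gene, and capitals mark a run of at least 5 C or T that begins within 5 bases of the start site. Such a run was found in 22.0% of all 32851 windows, counted on the gene's strand alone. A match describes the letters and is not a mapped start site.
Rps27, chr3:90213629-90213658, minus strand: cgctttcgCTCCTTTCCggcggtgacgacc
Rps27l, chr9:66946076-66946105, plus strand: cctccccgccgCCTCTatcccggaagttgc
Rplp2, chr7:141447641-141447670, plus strand: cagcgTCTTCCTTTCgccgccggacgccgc
Rpl41, chr10:128549149-128549178, minus strand: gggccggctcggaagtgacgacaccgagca
Rpl39l, chr16:10170218-10170247, plus strand: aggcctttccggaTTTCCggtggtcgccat
Rpl10l, chr12:66284382-66284411, minus strand: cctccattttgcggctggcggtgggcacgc
Rpl22l1, chr3:28805498-28805527, plus strand: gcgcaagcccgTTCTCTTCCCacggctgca
The window of Rps27 holds a run of 9 pyrimidines and that of its paralogue Rps27l one of 5, while those of Rpl41 and Rpl10l hold none at this place. The RefSeq start of Rps27l lies 32 bases from the start of that gene in the deposited tables.

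Levels are given as TPM, a share of transcripts that is already divided by transcript length, summed over the rows of a gene. Loci assembled without a gene name are also listed, and alone they sum to 1000000 TPM in each library. The named genes are listed beside them on the same scale. They summed to between 30.4% and 90.9% of 1000000 in the libraries of the SCNT course. Percents of TPM or of the scale are of this 1000000, unless named genes are given as the base. Between 1.90 and 5.17 gigabases were aligned per SCNT or CC library and between 1.00 and 3.19 per MO library. Oocyte markers (9 genes) summed to 4444 to 8511 TPM at 6 hpa and to 41.9 to 116 at 4C, and were at most 2.32 in CC, while 12 cumulus markers summed to 2588 to 3939 in CC and to at most 66.6 in any other library. Replicates numbered 1 to 3 and 4 to 6 differed from each other at several stages, so values within each set are given beside the results, and the labels do not say what the numbers stand for.

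The 84 genes together had a low summed level in the first hours after activation and a high one from 4C on. As a percent of 1000000 TPM, it was 4.26% ± 0.426 (SD, n = 3) in CC and 0.533% ± 0.0590 (n = 6) at 6 hpa, with libraries from 3.79 to 4.62% and from 0.463 to 0.632%. At 14 hpa it was 0.707% ± 0.0623 (0.618 to 0.781) and at E2C 0.845% ± 0.147 (0.713 to 1.05). The 6 hpa libraries and those of 14 hpa overlapped at only a narrow range, 14 hpa and E2C overlapped broadly, and no embryo library of these 3 stages came near the CC level. At L2C the sum was 2.01% ± 0.521 (1.18 to 2.83), at 4C 6.78% ± 2.0 (5.14 to 8.97, n = 5) and at 8C 10.6% ± 0.343 (10.2 to 10.9). Each of these 3 stages lay above the one before it without overlap. The morula held 10.1% ± 1.15 (8.52 to 11.1), the SCNT ICM 5.31% ± 1.24 (4.07 to 6.61) and the SCNT TE 5.57% ± 0.786 (4.43 to 6.29), so the ICM and TE ranges overlapped each other and lay below all morula libraries. As a share of the TPM of named genes alone, the means were 5.19% in CC, 0.744% at 6 hpa, 1.12% at 14 hpa, 1.33% at E2C, 3.90% at L2C, 11.3% at 4C and 13.0% at 8C. Among the 76 genes that are not paralogues, the mean level per large subunit gene divided by that per small subunit gene was between 0.875 (L2C) and 1.08 (E2C) in the SCNT groups and 0.957 in CC. With the paralogues included it was 0.874 in CC, 0.281 at 6 hpa, 0.312 at 14 hpa, 0.325 at E2C, 0.652 at L2C and 0.808 to 0.958 from 4C on. In libraries of this kind, fewer cells of a type and less RNA per cell cannot be told apart, and a share can change when the rest of the transcriptome does. Only polyadenylated RNA was captured, and the part of this capture in the levels was not tested.

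**Figure D1:**
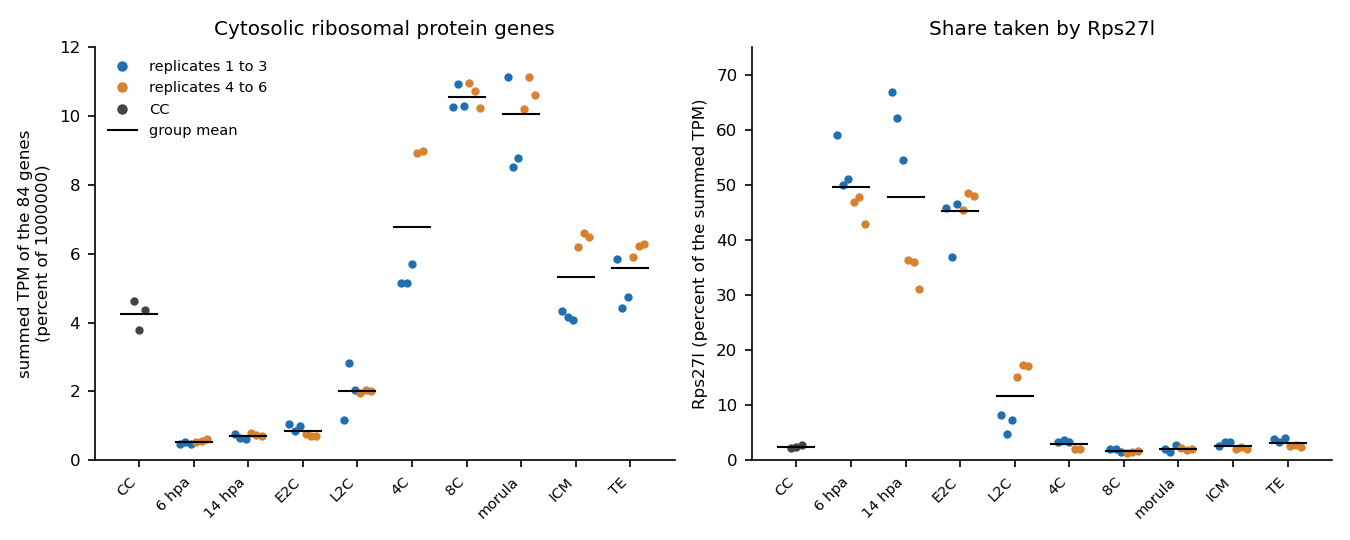
Left, summed TPM of the 84 cytosolic ribosomal protein genes as a percent of 1000000 TPM. Right, the percent of that sum taken by Rps27l. Each point is a library (grey, CC; blue, replicates 1 to 3; orange, replicates 4 to 6) and the line is the group mean. The sum lies between 0.463 and 1.05% from 6 hpa to E2C and between 10.2 and 10.9% at 8C, and Rps27l takes 49.6% of it on average at 6 hpa and 1.70% at 8C.

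The 84 genes were not evenly lower in the early embryo than in CC. Rps27l alone made up 49.6% ± 5.43 of their sum at 6 hpa (42.9 to 59.1%), 47.8% ± 15.2 at 14 hpa and 45.2% ± 4.24 at E2C, compared with 2.51% in CC. At L2C it held 11.7% ± 5.51, and from 4C on between 1.70 and 3.19% in the group means. Without the 8 paralogues, the other 76 genes summed to 0.265% at 6 hpa, 0.359% at 14 hpa, 0.453% at E2C, 1.75% at L2C, 6.50% at 4C and 10.2% at 8C. The median member stood at 403 TPM in CC, 16.4 at 6 hpa, 30.5 at 14 hpa, 43.2 at E2C, 155 at L2C, 678 at 4C, 1108 at 8C, 1058 in the morula, 549 in the ICM and 577 in the TE. At least 100 TPM on average were reached by 76 members in CC, 7 at 6 hpa, 9 at 14 hpa, 9 at E2C, 61 at L2C and 77 to 80 in each later group. The rank order of the members was least like that of the donor cells at 6 hpa. Across the 84 genes, Spearman's rho with the CC means was 0.339 at 6 hpa, 0.408 at 14 hpa, 0.472 at E2C, 0.635 at L2C, 0.795 at 4C, 0.875 at 8C and 0.903 in the TE. These coefficients describe genes of one set of libraries, which are not independent replicates, and the lowest levels carry the largest counting error.

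Most members shared one course. The highest group mean was at 8C for 46 of the 84 members and in the morula for 31, and the lowest was at 6 hpa for 63. Among the 76 members that are not paralogues, the ratio of the 8C mean to the 6 hpa mean had a median of 64.1 and ran from 3.10 for Rps15a to 633 for Rpl9. Rpl35 was the highest member in CC at 2008 TPM. Rps27l led from 6 hpa to L2C, Rpl41 at 4C, 8C and in the morula, and Rpl4, a large subunit protein that lines the exit tunnel of the new peptide, in the SCNT ICM and TE and in each of the 6 MO groups. The members least like the median course, by Pearson's r of the 10 group means of log2(TPM + 1) with the median over all 84, were Rps27l (-0.73), Rpl39l (-0.31), Rpl10l (0.62), Rps15a (0.70), Rps4l (0.76) and Rplp2 (0.79), leaving aside Rpl3l, which averaged under 1 TPM. All other members had 0.88 or more.

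**Figure D2:**
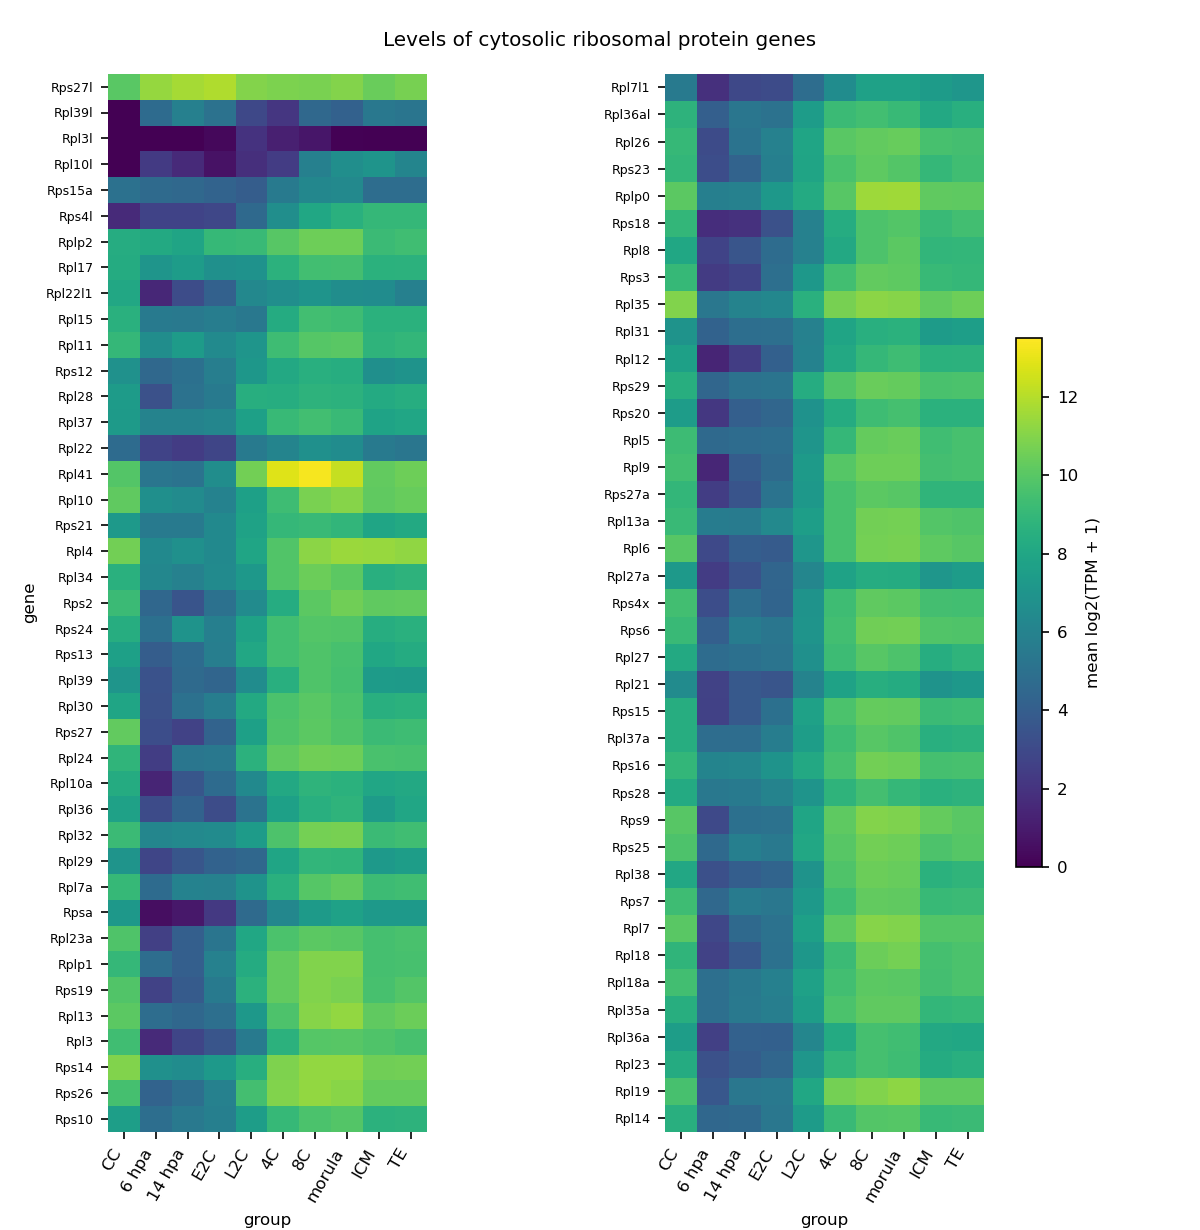
Mean log2(TPM + 1) of the genes (rows) in CC and the 9 SCNT groups (columns), ordered by the correlation of a gene's course with the median course, lowest first. Most rows are dark blue (low) from 6 hpa to E2C and green to yellow (high) from 4C to the morula, and the first rows, led by Rps27l, depart from this.

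Nearly all members were lower in the 6 hpa embryo than in the donor cells. This step sets a somatic cell type beside an oocyte that holds a donor nucleus, and no oocyte library was part of the set. At 6 hpa oocyte markers summed to 4444 to 8511 TPM and cumulus markers to at most 15.7. Fell and rose at this step mean lower and higher than in CC, and a loss of donor mRNA was not tested. In limma fits of log2(TPM + 1), with Benjamini-Hochberg adjustment over all genes tested and a change of at least 2-fold required, 76 of the 83 members tested fell and 3 rose, against 35.6% and 25.8% of the 12084 genes tested. Genes entered the test with a mean of at least 1 TPM over the 56 libraries, which Rpl3l, the 84th member, did not reach. The median log2 change of the 83 was -4.60, beside -0.28 for all genes. The fall was of like size in both subunits, with 45 of 46 large subunit genes (median -4.39) and 28 of 30 small subunit genes (median -4.92) passing, paralogues left out. CC and 6 hpa libraries did not overlap in 80 of the 83, and in 70.4% of all genes tested.

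The largest falls were in genes of both subunits. Rpl9 was at 578, 727 and 767 TPM in CC and at 0.417, 1.37 and 8.46 (lowest, median, highest) at 6 hpa, a log2 change of -8.0 ± 0.39 (SE; limma adjusted p = 7.95e-25). Rpl3, which reaches toward the peptidyl transferase centre, was at 640.0 to 689 TPM in CC and at 0.836 to 5.22 at 6 hpa (-7.78 ± 0.38, limma adjusted p = 4.79e-25). The ranges lay far apart for both. Rps18, in the head of the small subunit, had 461 to 559 TPM in CC and 1.26 to 7.15 at 6 hpa (-7.21 ± 0.48, limma adjusted p = 4.82e-19). Rps27, a zinc finger protein of the small subunit, had 1082 to 1274 in CC and 4.85 to 16.1 at 6 hpa (-7.05 ± 0.46, limma adjusted p = 1.93e-19). Rpsa, the small subunit protein also known as the laminin receptor, had 131, 138 and 170.4 TPM in CC and 0.172 to 1.64 at 6 hpa (-6.67), but it has many processed copies in the mouse genome that could take a part of its reads.

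The stalk of the large subunit, which recruits the elongation factors, did not change as a unit. Its base protein Rplp0 had a mean of 1106 TPM in CC and of 58.0 at 6 hpa (32.6, 59.6 and 85.8 as lowest, median and highest; log2 change -4.29), and Rplp1 of 515 and 28.1 (-4.16). Rplp2, the binding partner of Rplp1, was at 275, 307 and 432 TPM in CC and at 143, 307 and 418 at 6 hpa, and these ranges overlapped almost fully (-0.20 ± 0.36, limma adjusted p = 0.667). At 6 hpa Rplp2 was the second highest member. Rps15a, at 32.5 TPM in CC and 24.7 at 6 hpa (-0.39 ± 0.26, limma adjusted p = 0.188), did not pass either. The 3 members that rose were paralogues: Rpl39l by a log2 value of 4.72 ± 0.83 (limma adjusted p = 2.28e-06), Rpl10l by 2.28 ± 0.77 (limma adjusted p = 0.00888) and Rps27l by 1.30 ± 0.25 (limma adjusted p = 8.78e-06). The first 2 were listed at 0 in all 3 CC libraries, so their log2 changes depend on the pseudocount.

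From 6 to 14 hpa, when the embryo has 1 cell, 32 of the 83 members rose and none fell (6.17% and 5.02% of all genes; median 0.68, all genes 0.01). They were 19 large and 11 small subunit genes and 2 paralogues. The ranges did not overlap for 12 members, 11 of them higher at 14 hpa, beside 11.5% of all genes. Rpl24, which bridges the subunits, had 1.87 to 13.8 TPM at 6 hpa and 21.8 to 48.0 at 14 hpa (2.84 ± 0.32, limma adjusted p = 1.5e-09). Rpl9 had 9.21 to 21.0 TPM at 14 hpa (2.48 ± 0.32, limma adjusted p = 4.18e-08). Rpl10a, of the stalk opposite the one formed by Rplp1 and Rplp2, had 1.00 to 4.10 TPM and then 6.72 to 18.5 (2.23 ± 0.25, limma adjusted p = 1.06e-09). The ranges were apart for all 3 genes, yet all 14 hpa libraries stayed far below those of CC. Within replicates 1 to 3 the counts were 19 up and 3 down, beside 312 and 589 of 11951 genes tested, and within replicates 4 to 6 they were 38 and 0, beside 1686 and 430 of 11972.

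From 14 hpa to E2C the median member went opposite ways in the replicate sets. Over all libraries 22 members rose and 3 fell (2.90% and 3.10% of all genes; median 0.44, all genes 0.12). Within replicates 1 to 3, 53 rose and 2 fell, with a median of 1.34. Within replicates 4 to 6 none rose and 17 fell, with a median of -0.36, and across all genes the counts were 1161 up and 348 down in the first set and 66 up and 665 down in the second. Of the 83 members, 49 had a higher mean at E2C in the first set and a lower one in the second, and 1 member had the opposite. All 53 rises called within a set were thus in replicates 1 to 3. At 14 hpa, replicates 1 to 3 had 7438 to 9103 genes at 1 TPM or more and replicates 4 to 6 had 10160 to 10564. There 61 of the 84 members had replicates 4 to 6 all above replicates 1 to 3, and 1 the reverse (46.6% and 5.20% of the genes tested). At E2C 10 had replicates 4 to 6 all above, and 51 the reverse (21.0% and 19.7%). The part of these library differences in the split was not tested.

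Rps27 and Rpl41 show the split by library. Rps27 was at 0, 5.71 and 4.56 TPM in replicates 1, 2 and 3 at 14 hpa and at 11.0, 11.9 and 11.5 in replicates 4, 5 and 6. At E2C it was at 36.5, 31.4 and 39.0 in replicates 1 to 3 and at 8.08, 9.81 and 10.8 in replicates 4 to 6. Rps27 was thus higher at E2C in every library of the first set and lower in every library of the second. Rpl41, the smallest of the ribosomal proteins, was at 24.5, 10.5 and 17.0 TPM in replicates 1 to 3 at 14 hpa and at 193, 126 and 136 at E2C. In replicates 4 to 6 it was at 73.2, 70.2 and 73.6 and then at 59.5, 66.7 and 66.8. The pooled log2 changes of 1.60 for Rps27 and 1.47 for Rpl41 (limma adjusted p = 0.00344 and 0.0056) hold values from both patterns.

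Rps24 and Rpl36 were among the 3 members that fell. Rps24 had 91.0 to 160 TPM at 14 hpa and then 44.5 to 64.2, without overlap (-1.13 ± 0.21, limma adjusted p = 0.000221), but its change of -0.74 in replicates 1 to 3 did not pass, beside -1.52 in replicates 4 to 6. Rpl36 fell by 1.13 (SE 0.34, limma adjusted p = 0.0257), with -1.23 and -1.03 in the sets, but leaving out any of 6 libraries in turn took its limma adjusted p to between 0.0627 and 0.0896. The pooled rises included those of Rps3, which sits at the mRNA entry of the small subunit (2.24 ± 0.30, limma adjusted p = 4.78e-07), and of all 3 stalk genes, Rplp1 (1.84 ± 0.29, limma adjusted p = 1.15e-05), Rplp0 (1.25 ± 0.34, limma adjusted p = 0.0119) and Rplp2 (1.13 ± 0.30, limma adjusted p = 0.00938). In replicates 1 to 3 the log2 changes were 3.78 for Rps3, 3.02 for Rplp1, 1.98 for Rplp0 and 1.5 for Rplp2, and all passed. In replicates 4 to 6 they were 0.69, 0.66, 0.53 and 0.77, all positive and all short of 2-fold. Without replicate 2 of 14 hpa the change of Rplp0 was 1.05 (limma adjusted p = 0.0566), and that of Rplp2 was 0.98 without replicate 1 of 14 hpa and 0.96 without its replicate 2, under the 2-fold limit.

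**Figure D3:**
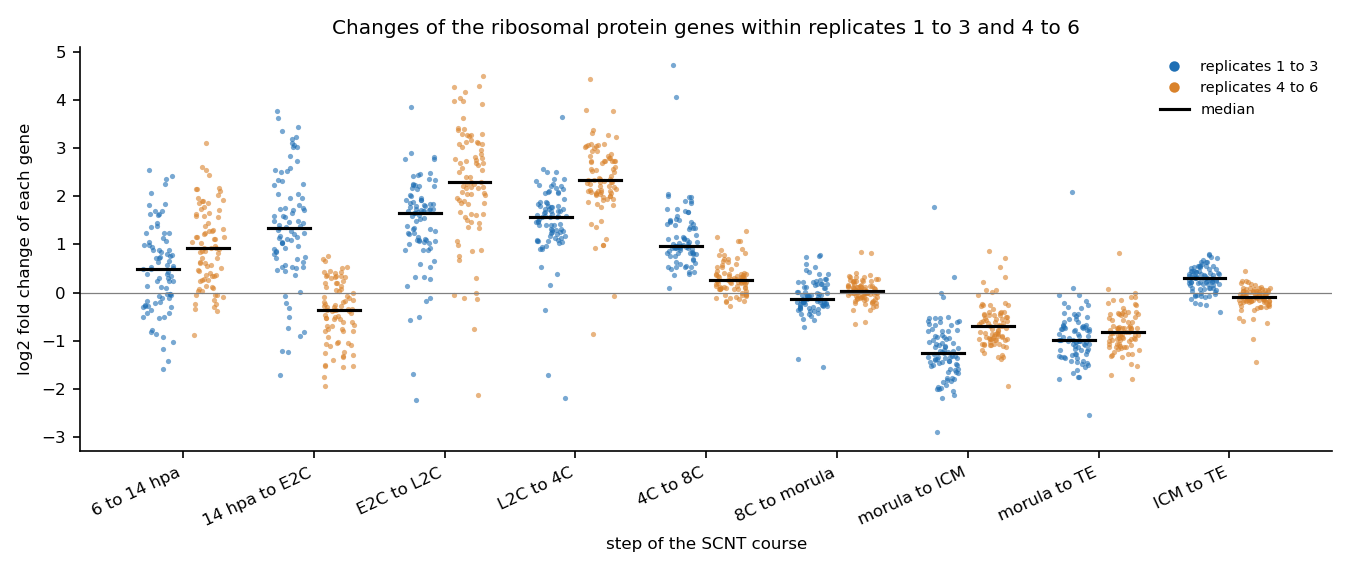
Log2 fold change of each of the 83 tested genes for 9 steps of the course, computed within replicates 1 to 3 and within replicates 4 to 6, with the median as a black line. From 14 hpa to E2C the medians are 1.34 and -0.36, and from E2C to L2C they are 1.66 and 2.29.

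The broad rise came between E2C and 4C, and it was seen in both replicate sets. From E2C to L2C 70 of 83 members rose and 1 fell (23.6% and 11.1% of all genes; median 2.0, all genes 0.26), and the libraries did not overlap for 62 (18.3% of all genes). The risers were 38 of 46 large and 28 of 30 small subunit genes and 4 paralogues. In replicates 1 to 3 and 4 to 6 alone, 65 and 71 rose, with medians of 1.66 and 2.29, beside 1626 and 3402 of all genes. Oocyte markers summed to 635 to 2770 TPM at L2C, below all 6 hpa libraries, and their part in the shares was not tested.

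Rpl41 had the largest change. It stood at 59.5, 96.2 and 193 TPM (lowest, median, highest) at E2C and at 962, 1320 and 4541 at L2C (4.02 ± 0.36, limma adjusted p = 8.04e-13), and became the second highest member. Rps26, at the mRNA exit of the small subunit, had 31.3 to 125 TPM and then 435 to 1220 (3.52 ± 0.28, limma adjusted p = 1e-14), and Rps27 had 8.08 to 39.0 and then 136 to 487 (3.40 ± 0.38, limma adjusted p = 2.2e-10). The stages did not overlap for any of these 3 genes. Of the stalk genes Rplp1 rose by 2.40 (limma adjusted p = 2.09e-09) and Rplp0 by 1.08 (limma adjusted p = 0.008), while Rplp2 changed by 0.09 (limma adjusted p = 0.844). The change of Rplp0 fell under the 2-fold limit when replicate 4, 5 or 6 of L2C was left out. The member that fell was Rpl39l (-2.18 ± 0.68, limma adjusted p = 0.00851), and without replicate 3 of L2C its change was -1.66 (limma adjusted p = 0.0511).

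From L2C to 4C 75 members rose and none fell (11.7% and 26.5% of all genes; median 1.89, all genes -0.33), and 74 did not overlap (20.3% of all genes). Both subunits rose almost throughout, with 43 of 46 and 29 of 30 genes. Rpl29 went from 8.17 to 52.4 TPM to 146 to 398 (3.40 ± 0.36, limma adjusted p = 1.8e-11), Rpl3 from 25.5 to 57.5 to 215 to 936 (3.17 ± 0.32, limma adjusted p = 6.57e-12), and Rpl38, whose loss causes the skeletal defects of Tail-short mice, from a mean of 137 to one of 911 (2.87 ± 0.28, limma adjusted p = 2.45e-12). Rps15a, with means of 15.1 and 46.6 TPM, rose here and at no earlier step (1.55 ± 0.22, limma adjusted p = 7.58e-08). The sets had 73 and 78 members up, with medians of 1.58 and 2.33, beside 925 and 2226 of all genes.

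From 4C to 8C 24 members rose and none fell (11.6% and 8.39% of all genes; median 0.71, all genes 0.03). The count differed between the sets, with 38 up in replicates 1 to 3 (median 0.97) and 3 up in replicates 4 and 5 of 4C against 4 to 6 of 8C (median 0.27), beside 1337 and 1107 of all genes. It was 15 without replicate 1 of 4C. Of the 84 genes, 76 had every 4C library of the second set above every one of the first, as had 29.3% of the 12084 genes tested, and the summed level at 4C was 5.33% in the first set and 8.95% in the second. With TPM rescaled over named genes, 6 of 84 members rose (median 0.22), beside 875 of 13012 genes (median -0.20). Under quantile scaling 5 of 83 members rose, beside 1295 of 12084 genes. In both, the members rose about as often as all genes or less often, so this step depends on the scaling. Rps2, beside Rps3 at the mRNA entry, had 146 to 675 TPM at 4C and 702 to 1452 at 8C (1.72 ± 0.39, limma adjusted p = 0.000839), and Rpl10, which joins the large subunit late in its assembly, rose by 1.49 ± 0.30 (limma adjusted p = 0.000165). Rpl7a rose by 1.40 ± 0.31 (limma adjusted p = 0.000631), from 264 to 626 TPM at 4C to 669 to 1241 at 8C.

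Between 8C and the morula no member rose and 1 fell (9.05% and 3.53% of all genes; median -0.07, all genes 0.19). It was Rpl41, at 9049 to 12101 TPM at 8C and 2710 to 7229 in the morula, ranges that did not overlap (-1.02 ± 0.36, limma adjusted p = 0.0498). Leaving out a library at a time lost the call in 11 of 12 cases, with limma adjusted p values from 0.0518 to 0.156.

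The blastocyst held less of these mRNAs than the morula, to a degree that varied by gene. From the morula to the SCNT ICM 41 members fell and none rose (15.1% and 8.93% of all genes; median -0.99, all genes -0.15), and to the SCNT TE 30 fell and none rose (10.9% and 11.0%; median -0.88, all genes -0.03). Both comparisons share the morula libraries. Large subunit genes made up 28 and 21 of these calls and small subunit genes 13 and 9. Within replicates 1 to 3, 56 and 36 members fell in the ICM and TE, beside 2845 and 1489 of all genes, and within replicates 4 to 6, 17 and 23 fell, beside 964 and 1079. ICM replicates 1 to 3 had 6177 to 6771 genes at 1 TPM or more, fewer than any other library. Under quantile scaling, 26 and 17 members fell.

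The same 3 genes led in both tissues. Rpl39, a small protein of the exit tunnel, had 566, 674 and 1104 TPM (lowest, median, highest) in the morula, 105, 183 and 282 in the ICM and 131, 152 and 214 in the TE, with log2 changes of -2.09 ± 0.33 and -2.17 ± 0.33 (limma adjusted p = 1.67e-06 and 7.95e-07). Rpl41 had 780.1 to 1857 TPM in the ICM and 999 to 1927 in the TE (-2.07 ± 0.36 and -1.76 ± 0.36, limma adjusted p = 1.41e-05 and 0.000171), and was no longer the leading member. Rpl38 had 1051 to 1639 TPM in the morula, 276 to 580.1 in the ICM and 374 to 596 in the TE (-1.76 ± 0.27 and -1.55 ± 0.27, limma adjusted p = 9.75e-07 and 1.02e-05). None of these genes had a blastocyst library within its morula range. Rpl4 was at the other end, with 2666, 2809 and 2945 TPM in the morula, 2398, 2839 and 2954 in the ICM and 2303, 2474 and 2684 in the TE (-0.01 ± 0.23 and -0.19 ± 0.23, limma adjusted p = 1.0 and 0.642). Rpsa changed by -0.43 and -0.41, which did not pass.

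Between the SCNT ICM and TE no member passed in either direction (4.25% and 1.54% of all genes were higher and lower in TE; median 0.11, all genes 0.08). At an unadjusted p under 0.05, limma also gave 0 members with a 2-fold change, and every member's ranges overlapped (1.04% of all genes did not overlap). The ICM libraries were not uniform: for 62 of the 84 members, replicates 4 to 6 all lay above replicates 1 to 3, against 0 the other way (23.6% and 4.24% of the genes tested), and the sums were 4.19% and 6.44%. Replicates 1 to 3 had 6177 to 6771 genes at 1 TPM or more, and named genes summed to 74.6 to 78.9% of the scale. Replicates 4 to 6 had 9011 to 10032 genes and 89.2 to 89.4%. The 9 TE markers summed to 2052 to 8531 TPM in the SCNT ICM and to 5152 to 16305 in the SCNT TE, so the fractions overlapped in these markers too. Their part in the result was not tested.

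Rps27l departed most from the common course. It had 895, 1066 and 1252 TPM in CC, and 2358, 2665 and 2878 (lowest, median, highest) at 6 hpa. At 14 hpa it had 2156 to 5045 TPM and at E2C 3098 to 4835, its highest group mean (3815 ± 725). Every embryo library up to E2C lay above every CC library. At L2C the range was 979 to 3543 TPM, and the later group means ran from 1347 in the ICM to 2066 in the morula, so its level varied over a narrow range while the other members changed many fold. From E2C to L2C its log2 change was -0.88 (limma adjusted p = 0.000395), short of 2-fold. It was -1.70 and passed in replicates 1 to 3, and was -0.06 in replicates 4 to 6.

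The balance of Rps27l and Rps27, which encode near-identical proteins of the small subunit, moved over a wide range. The log2 ratio of their levels (with 1 TPM added to each) was -0.18 in CC, 8.17 at 6 hpa, 8.97 at 14 hpa, 7.59 at E2C, 3.30 at L2C, 1.05 at 4C, 0.66 at 8C, 1.18 in the morula, 1.21 in the ICM and 1.44 in the TE. A ratio of this kind is taken within a library, and through the added 1 TPM it still depends on the library's scale where levels are low. The ratio was lower at L2C than at E2C by 4.28 (exact permutation test, two-sided, p = 0.00216, adjusted p = 0.0216 over 80 comparisons of 8 pairs), and lower at 4C than at L2C by 2.25 (exact permutation test, adjusted p = 0.0289). From 8C to the morula it was higher by 0.51 (exact permutation test, adjusted p = 0.0216). Between CC and 6 hpa, with 3 and 6 libraries, the smallest p possible is 0.0238, which cannot pass here, though the 2 sets of values did not overlap.

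Rpl39l, the male germ cell paralogue of Rpl39, was listed at 0 in all 3 CC libraries. It had 15.2, 25.7 and 42.1 TPM (lowest, median, highest) at 6 hpa, 38.1, 62.7 and 67.6 at 14 hpa and 23.7, 34.5 and 43.8 at E2C, and was detected in every one of these 18 libraries. At 4C its values were 0.673, 0.182 and 0.0605 TPM in replicates 1 to 3 and 25.8 and 26.7 in replicates 4 and 5, so the 2 sets were apart. The step from 4C to 8C (2.42, limma adjusted p = 0.0108) was lost without any one of the first 3 of these libraries, with limma adjusted p values of 0.0537 to 0.0651. Its partner Rpl39 had a mean of 130.4 TPM in CC, 11.1 at 6 hpa and 894 at 8C. The log2 ratio of Rpl39l to Rpl39 was 1.34 at 6 hpa, 0.71 at E2C, -3.64 at L2C, -6.40 at 4C, -5.34 in the morula, -2.0 in the ICM and -2.09 in the TE. It was lower at L2C than at E2C by 4.35, and higher in the ICM and TE than in the morula by 3.34 and 3.25 (exact permutation tests, adjusted p = 0.0216 each).

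Rpl10l and Rps4l, the paralogues of Rpl10 and Rps4x, were highest late. Rpl10l was listed at 0 in CC and had means of 4.05 TPM at 6 hpa, 0.780 at E2C, 14.1 at 4C, 61.5 at 8C (31.8, 52.5 and 103 as lowest, median and highest), 107 in the morula, 144 in the ICM and 73.9 in the TE. From 4C to 8C it rose by 3.44 ± 0.66 (limma adjusted p = 0.00011), when Rpl10 reached 1788 TPM. Rps4l was at 0.522, 4.08 and 2.63 TPM in the CC libraries, at a mean of 6.12 at 6 hpa, 27.5 at L2C, 143 at 4C, 273 at 8C, 394 in the morula, 577 in the ICM and 559 in the TE. It was at its highest in the blastocyst, where most members were below their morula level. In the ICM its replicates 1 to 3 had 272 to 444 TPM and its replicates 4 to 6 had 716 to 917. The log2 ratio of Rps4l to Rps4x was -7.83 in CC, -1.49 in the morula and -0.44 in the ICM, and the last difference was 1.06 (exact permutation test, adjusted p = 0.0289). The rise of Rps4l from 4C to 8C (1.35, limma adjusted p = 0.0331) was lost when any of 6 libraries was left out. Rps4l and Rps4x are close relatives, so reads of one may have been counted for the other.

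The other 4 pairs also had changes that passed. Rpl22l1 was above Rpl22 in CC (log2 ratio 3.39) and below it at 6 hpa (-1.20), and the ratio was higher at 14 hpa by 1.94 (exact permutation test, adjusted p = 0.0216). With the libraries of these stages paired by replicate number, an exact sign-flip test gave an adjusted p of 0.139, and 6 pairs allow no p below 0.0313. Rpl36al exceeded Rpl36a at 4C (0.96) and not at 8C (-0.11), a difference of -1.07 (exact permutation test, adjusted p = 0.0289), and the ratio was higher in the TE than in the morula by 0.76 (exact permutation test, adjusted p = 0.0216). Rpl7l1 to Rpl7 went from -3.21 in the morula to -2.52 in the ICM, a difference of 0.68 (exact permutation test, adjusted p = 0.0216). Rpl3l was listed at 0 in 40 libraries and its highest group mean was 3.97 TPM at L2C; its log2 ratio to Rpl3 differed by -3.94 between L2C and 4C (exact permutation test, adjusted p = 0.0289), which was lost with a pseudocount of 0.1. In all 12 of 80 comparisons passed, and none between the ICM and TE did. Within replicates 1 to 3 or 4 to 6 alone none can pass, since 3 libraries against 3 give no p below 0.1.

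**Figure D4:**
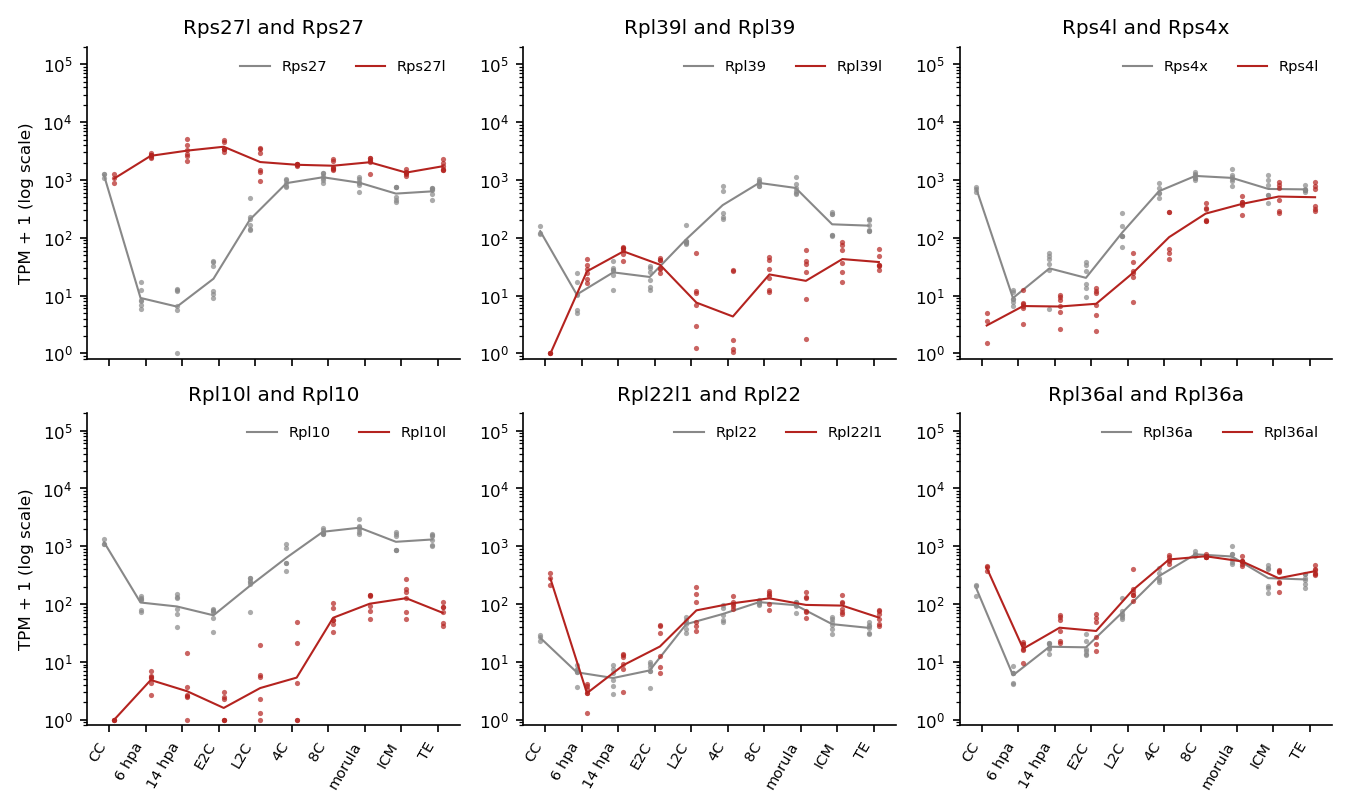
TPM + 1 on a log axis for 6 pairs of a paralogue (red) and the member it is named after (grey) in each library of CC and the SCNT groups, with the geometric mean of each group as a line. Rps27l lies far above Rps27 from 6 hpa to E2C and within a mean log2 ratio of 1.44 in CC and from 4C on, and Rpl39l lies above Rpl39 at 6 hpa.

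Rpl17 was above 100 TPM and Rplp2 above 200 in each group mean from 6 hpa to L2C. Rpl17, at 321 TPM in CC, had 139 at 6 hpa, 194 at 14 hpa, 108 at E2C and 119 at L2C. Rplp2 had 307, 266, 538 and 604 TPM from 6 hpa to L2C, with ranges of 143 to 418 at 6 hpa and 364 to 706 at E2C that overlapped, and 1488 ± 116 at 8C.

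Related gene groups are described by their counts, beside all genes tested, of which 35.6% fell from CC to 6 hpa, 23.6% rose and 11.1% fell from E2C to L2C, and 11.7% rose from L2C to 4C. Fau and Rps3a1, cytosolic ribosomal protein genes that the symbol rule missed, fell from CC to 6 hpa (log2 changes of -2.38 and -4.82) and rose from E2C to L2C (1.67 and 2.29) and from L2C to 4C (1.55 and 1.20). Of 77 mitochondrial ribosomal protein genes, whose products form the separate ribosome of the mitochondrion, 55 fell and none rose from CC to 6 hpa, 29 rose and 9 fell from E2C to L2C, and 53 rose and none fell from L2C to 4C. Of 17 other genes with TOP mRNAs, mostly translation factors, 12 fell at the first step, 5 rose and 1 fell from E2C to L2C, and 11 rose from L2C to 4C, among them Eef1g (3.26) and Gnb2l1, the small subunit protein also called Rack1 (3.24). Of 10 regulators of TOP mRNAs 4 fell at the first step, and of 9 chaperones that carry ribosomal proteins 7 fell there and 5 rose and 2 fell from E2C to L2C. Of 6 listed ribosomal protein pseudogenes, which can share reads with their parents, 4 fell from CC to 6 hpa, 2 and 3 rose at the steps from E2C to L2C and L2C to 4C, and the highest, Rpl34-ps1, had means of 535 TPM in CC, 108 at 6 hpa and 1877 at 8C. From 4C to 8C 10 of the 17 other TOP genes rose (11.6% of all genes), and from the morula to the ICM 7 fell (15.1% of all genes).

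In the fertilized embryos the question was how injection of the Max or Mcrs1 MO changed these genes in each tissue of the blastocyst. MAX is the partner of MYC, a transcription factor known for driving ribosomal protein genes, and MCRS1 is a protein of nucleoli and chromatin complexes. The targets were checked first. Mcrs1 had 253 and 310.1 TPM in the ICM controls and 86.8 and 73.4 after its MO, and 219 and 294 TPM in the TE controls and 41.1 and 45.5 after it. Max had 38.0 and 8.42 TPM in the ICM controls and 6.82 and 0.443 after its MO, and 34.5 and 28.5 in the TE controls and 16.3 and 8.68 after it. Each MO group lay below its controls, but an MO that blocks translation need not lower its mRNA. Max was also below its controls in the TE after the Mcrs1 MO, at 17.6 and 15.7 TPM. In the ICM it was between its controls, at 14.4 and 9.25. After the Max MO, Mcrs1 was at 218 and 242 TPM in the ICM and 206 and 194 in the TE, below its controls. Lying below both controls was common among all genes tested. In the ICM and TE it held for 33.4% and 36.3% after the Max MO and for 26.4% and 40.3% after the Mcrs1 MO. Mcrs1 in both tissues and Max in the ICM were lower after their own MO than after the other, without overlap. Max in the TE overlapped between the MOs. The second ICM control library had TE markers at 16364 TPM, against 647 in the first and 15258 to 21363 in the TE libraries, so it did not match its label in these genes. The ICM libraries had TE markers at 2799 and 5951 TPM after the Max MO and 8194 and 11712 after the Mcrs1 MO. The part of these markers in the ICM results was not tested, and the median changes of the members are also given without that library.

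The summed level of the 84 genes was higher after the Max MO in the ICM than in its controls: it was 3.05 and 4.45% in the controls, 7.14 and 6.05% after the Max MO and 4.33 and 4.84% after the Mcrs1 MO. In the TE it was 2.93 and 3.90% in the controls, 3.91 and 3.96% after the Max MO and 4.39 and 4.17% after the Mcrs1 MO. The ICM Max libraries lay above both controls, the ICM Mcrs1 libraries overlapped them, and the TE libraries of both MOs lay just above. As a share of the TPM of named genes, the TE controls were at 3.26 and 4.32%. The TE Max libraries, at 4.17 and 4.23%, then lay between their controls, and the TE Mcrs1 libraries, at 4.68 and 4.44%, lay above them. With 2 libraries per group, an exact permutation test of a sum cannot pass, and none was made.

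By gene, 49 of 83 members rose and 1 fell in the ICM after the Max MO (8.65% and 15.1% of the 11219 genes tested; median 1.12, all genes -0.21). The count of 50 depended on the libraries. It was lower without control replicate 1 or either Max library, and higher without control replicate 2 (the one with high TE markers). Without that control the median change was 1.52, beside -0.30 for all genes. In the TE 4 members rose and none fell (1.04% and 1.45%, median 0.39, all genes -0.19). None of these calls held when any of the 4 TE libraries was left out. The count was higher without ICM control replicate 2, which shares in the estimate of the spread. After the Mcrs1 MO 10 members rose and none fell in the ICM (4.88% and 5.21%, median 0.57, all genes -0.05). The count was lower without control replicate 1 or either Mcrs1 library, and higher without control replicate 2. Without that control the median was 0.96, beside -0.11 for all genes. In the TE 9 rose and 1 fell (1.77% and 3.31%, median 0.53, all genes -0.24). The count was lower when any of these TE libraries was left out, and higher without ICM control replicate 2. Without that ICM control, larger shares of all genes were called too in each comparison. The calls in the ICM after the Max MO held 24 large and 21 small subunit genes, paralogues left out. The comparisons in a tissue share their 2 control libraries. With 2 libraries per group, many genes had MO and control libraries that did not overlap. In the ICM and TE these were 69 and 51 of the 83 members after the Max MO, with 68 and 46 higher. All genes tested had 56.9% and 57.5% not overlapping, and 23.5% and 21.2% higher. After the Mcrs1 MO the counts were 47 and 56 members, with 44 and 52 higher. All genes tested then had 49.7% and 62.3% not overlapping, and 23.3% and 22.0% higher. For the difference between the TE and ICM responses limma called no gene at all for either MO (0.00% of 11219 genes); for the Max MO 22 members had a lower response in the TE at an unadjusted p under 0.05 (median difference -0.68), beside 688 of the 11219 genes, and for the Mcrs1 MO 0 members had (median 0.01), beside 658. Without ICM control replicate 2, limma called 19 members lower and 0 higher in the TE response to the Max MO (1.59% and 2.04% of 11092 genes; median difference -1.02) and 0 for the Mcrs1 MO (0.117% and 0.00902%), so the call of a tissue difference for the Max MO turned on that library.

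**Figure D5:**
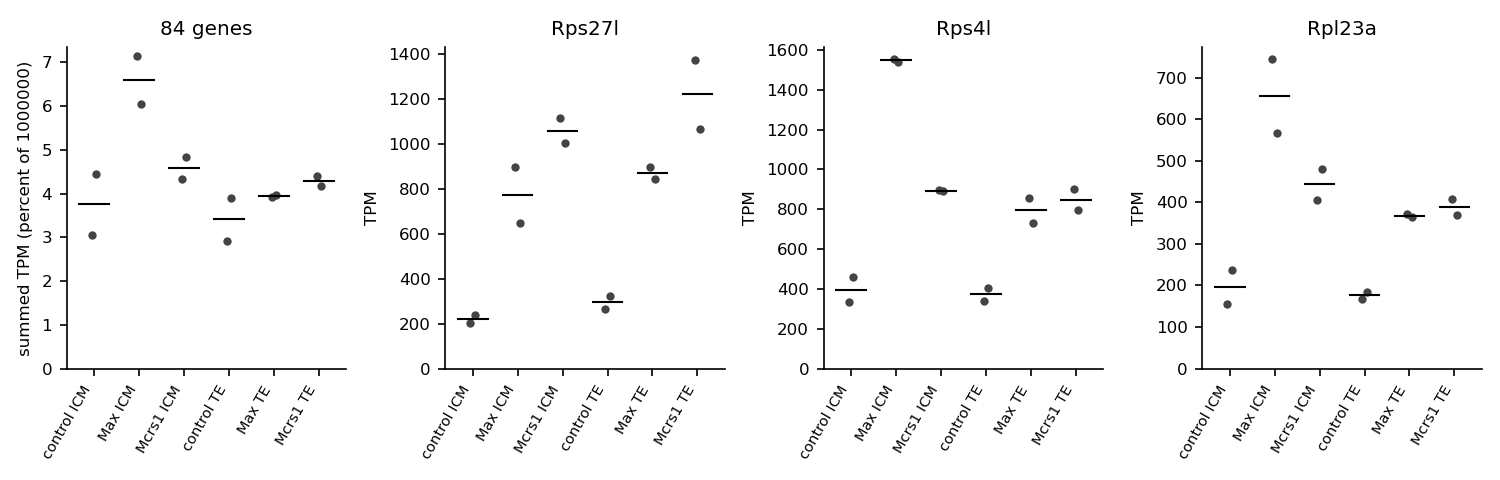
Summed level of the 84 genes (percent of 1000000 TPM) and TPM of Rps27l, Rps4l and Rpl23a in the 12 libraries of fertilized ICM and TE after control, Max or Mcrs1 MO. Points are libraries and the line is the mean of 2. Rps27l lies at 201 to 324 TPM in the 4 control libraries and at 648 to 1375 in the 8 others.

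Rps27l rose in all 4 comparisons. It was at 201 and 240.5 TPM in the ICM controls, 897 and 648 after the Max MO and 1119 and 1003 after the Mcrs1 MO. In the TE it was at 267 and 324 in the controls, 899 and 843 after the Max MO and 1375 and 1069 after the Mcrs1 MO. All 8 knockdown libraries lay above all 4 controls. The log2 changes were 1.79 ± 0.21 and 1.56 ± 0.21 for the Max MO (limma adjusted p = 0.000725 in the ICM and 0.0167 in the TE) and 2.26 ± 0.21 and 2.04 ± 0.21 for the Mcrs1 MO (limma adjusted p = 0.00193 and 0.00259). Of these calls, all but that of the Max MO in the TE held with each library left out, and there the limma adjusted p became 0.053 to 0.157. With the ICM libraries fitted alone, no member was called after the Mcrs1 MO, Rps27l included. Its partner Rps27 had 167 and 283 TPM in the ICM controls, 521 and 399.9 after the Max MO and 207 and 270.3 after the Mcrs1 MO, so it overlapped its controls in the last case.

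Rps4l and Rpl23a also passed in all 4 comparisons. Rps4l had 335 and 458 TPM in the ICM controls, 1554 and 1540 after the Max MO and 895 and 893 after the Mcrs1 MO, and in the TE 342 and 404, 858 and 733, and 900.1 and 796. Its log2 changes were 1.98 ± 0.19 (Max, ICM; limma adjusted p = 0.000379), 1.09 ± 0.19 (Max, TE; 0.0226), 1.19 (Mcrs1, ICM; 0.00617) and 1.19 ± 0.19 (Mcrs1, TE; 0.00967), while Rps4x changed by 0.39 after the Max MO in the ICM (limma adjusted p = 0.194). Rpl23a, at the mouth of the exit tunnel, had 155 and 238 TPM in the ICM controls, 744 and 566 after the Max MO and 406 and 481 after the Mcrs1 MO, with log2 changes of 1.75 and 1.20 (limma adjusted p = 0.000991 and 0.0112). In the TE it had 168 and 184 TPM in the controls, 372 and 364 after the Max MO and 408 and 369 after the Mcrs1 MO, with log2 changes of 1.06 and 1.14 (limma adjusted p = 0.04 and 0.0198). All these libraries lay above their controls, as did those of 21.2 to 23.5% of all genes tested in the 4 comparisons. The calls after the Max MO in the ICM held with each library left out for both genes, whereas after the Max MO in the TE none did, with limma adjusted p values of 0.053 to 0.163 for Rps4l and 0.101 to 0.212 for Rpl23a. After the Mcrs1 MO the Rps4l call was lost in the ICM without control replicate 1 (log2 change 0.96) or Mcrs1 replicate 1 (limma adjusted p = 0.059) and in the TE without 3 of the 4 libraries (limma adjusted p = 0.0844 to 0.0979), and that of Rpl23a in the ICM without control replicate 1 or either Mcrs1 library and in the TE without any of the 4 libraries (limma adjusted p = 0.0677 to 0.14).

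In the ICM, the largest rises after the Max MO were in Rps29, Rps21 and Rpl38. Rps29, a zinc finger protein of the small subunit, had 82.0 and 256 TPM in the controls and 848 and 660.3 after the MO (2.36 ± 0.40, limma adjusted p = 0.00274). Rpl38 had 53.6 and 114 TPM and then 381 and 258 (1.99 ± 0.35, limma adjusted p = 0.00323), and both calls held with each library left out. Rps21 had 15.5 and 82.0 TPM and then 184 and 149 (2.17 ± 0.56, limma adjusted p = 0.017), but its controls were far apart and the call was lost without Max replicate 1 (limma adjusted p = 0.0919) or replicate 2 (limma adjusted p = 0.0604). Rpl22l1 was the member that fell, from 65.4 and 114 TPM to 57.7 and 31.0 (-1.01 ± 0.34, limma adjusted p = 0.0472), and the change was -0.61 without control replicate 2 (limma adjusted p = 0.186) and -0.57 without Max replicate 2 (limma adjusted p = 0.302). Rpl4, the highest member, had 3593 and 3829 TPM in the controls and 4352 and 3666 after the MO (0.11, limma adjusted p = 0.631), values that overlapped.

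After the Mcrs1 MO, Rpl38 in the ICM had 218 and 311 TPM (1.72 ± 0.35, limma adjusted p = 0.0151) and Rps29 had 359 and 434 (1.44 ± 0.40, limma adjusted p = 0.0433). Both lay above their controls, yet the Rpl38 call was lost without Mcrs1 replicate 1 (limma adjusted p = 0.0709) or replicate 2 (limma adjusted p = 0.0965), and the Rps29 call without control replicate 1 or either Mcrs1 library. Rps2 was the only member that fell, from 1714 and 2451 TPM in the TE controls to 967 and 1005 (-1.06 ± 0.19, limma adjusted p = 0.0151). It lay below both controls, and the call was lost without control replicate 2 (-0.80, limma adjusted p = 0.0688), Mcrs1 replicate 1 (limma adjusted p = 0.109) or Mcrs1 replicate 2 (limma adjusted p = 0.131).

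Of all genes tested, 8.65% and 1.04% rose in the ICM and TE after the Max MO, and 4.88% and 1.77% after the Mcrs1 MO. In the same order 15.1%, 1.45%, 5.21% and 3.31% fell. Of the 77 mitochondrial ribosomal protein genes, 34 rose and none fell in the ICM after the Max MO, 4 rose in the TE after it, and 12 and 9 rose in the ICM and TE after the Mcrs1 MO. Of the 17 other TOP genes 1 rose (Naca, 1.15) and 1 fell (Eif4b, -1.42) in the ICM after the Max MO, and 1 fell in each of the other 3 comparisons. Of the 10 regulators of TOP mRNAs 3 fell in the ICM after the Max MO, and 2 and 1 fell in the ICM and TE after the Mcrs1 MO, while Fau rose in the ICM after the Max MO (1.37). Without ICM control replicate 2, the median log2 changes of the mitochondrial genes in the ICM were 0.95 after the Max MO and 0.67 after the Mcrs1 MO. Those of all genes were -0.30 and -0.11. The median of the regulators was -1.07 in the ICM after the Max MO, and Naca (0.82) fell short of 2-fold. Eef1a1, an elongation factor with a TOP mRNA and named here after its values were seen, had log2 changes of -0.98 in the ICM, short of 2-fold, and -1.31 in the TE after the Max MO, and -1.09 and -1.37 after the Mcrs1 MO.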

How the data were processed

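Libraries were Smart-seq2 of polyadenylated RNA. The authors trimmed reads with cutadapt 1.16, aligned them to mm10 with HISAT2 and quantified genes with StringTie; other versions are not given in the sources used here. The deposited tables hold TPM, a score scaled over named genes and assembled loci together, beside FPKM and coverage (signal), which the authors' program wrote; TPM was used here, and the deposited coverage gave the aligned bases. Rows were summed per gene. No read counts were used, so depth limits precision only through the spread between libraries. limma 3.58.1 (R 4.3.3) was fitted to log2(TPM + 1) over genes with a mean of at least 1 TPM: 10 groups and 56 libraries for CC and SCNT (12084 genes), 6 groups and 12 libraries for the MOs (11219 genes), without a replicate term. Calls needed a Benjamini-Hochberg adjusted p below 0.05 and a change of at least 2-fold. For paralogue ratios, exact permutation tests (two-sided, scipy 1.17.1) were used. The fit was tested on simulated data. Same-numbered libraries deviated together, with every correlation above 0.1, from 6 to 14 hpa (0.142 to 0.390). The same held between SCNT ICM and TE (0.130 to 0.298), and at no other step. Outside the steps it held between 14 hpa and SCNT TE (0.109 to 0.248) and between control MO ICM and TE (0.128). Libraries with different numbers were not compared, and a difference shared by a whole replicate set would also give such correlations. The check therefore cannot show whether the numbers pair libraries. Alternatives were a pseudocount of 0.1, a minimum of 5 TPM or none, rescaling over named genes, quantile scaling, a replicate block, each replicate set alone, the groups of a set fitted alone and each library left out; the related lists and tissue differences without ICM control replicate 2 were added after seeing the data.

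The members and gene lists were chosen with earlier results of these data known. Genes named by step were, among called members whose groups did not overlap, up to 3 with the largest change in each direction. Called members that went against the majority of a step were named too. The rule also took the 5 with the highest mean, the 6 least like the median course, the stalk genes, Rpsa and the paralogue pairs. RefSeq start windows were found for 63 of the 84 members (75.0%), too few to count motifs over the members. Some members and related genes are counted but not reported here by name. Control labels read control or untreated, and the study's methods name a control MO. The labels state 3 replicates per stage, where up to 6 were analysed here.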

Additional observations from a re-analysis of the deposited data

Results flagged for a closer look

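In all, 12 values stood apart from the rest of their group, further than Dixon's 95% limit, among 144 groups of 16 quantities; chance alone flags about 1 in 20 groups. Of these, 6 were in L2C replicates 1 and 2. Replicate 2 of L2C was high for Rps27 (487 TPM, others 136 to 232), Rpl39l (52.8, others 0.263 to 11.0), Rpl39 (165, others 76.8 to 87.5), Rpl10l (18.8, others 0 to 5.01) and Rpl41 (4541, others 962 to 2125). Replicate 1 of L2C, in which named genes had the smallest sum (30.4% of the scale), was low for Rpl10 (72.3 TPM, others 221 to 285). Replicate 6 of 6 hpa was high for Rpsa (1.64 TPM, others 0.172 to 0.587) and Rpl41 (95.1, others 19.4 to 43.9). The others were single: Rps27l was low in morula replicate 2 (1294 TPM, others 2042 to 2385), Rps4x high in TE replicate 1 (819.9, others 619 to 686), Rpl10l high in 14 hpa replicate 1 (13.3, others 0 to 2.67) and Rplp0 high in E2C replicate 2 (192, others 128 to 150). The cause was not tested.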

How the results depend on the processing

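Of 452 called changes of a member, 10 had the opposite sign in one replicate set alone, and none of these 10 passed there. From 14 hpa to E2C in replicates 4 to 6 they included Rps18 (-0.46), Rpl27a (-0.30), Rps19 (-0.25), Rps27 (-0.24), Rpl41 (-0.17) and Rpl8 (-0.15), from 4C to 8C in replicates 4 to 6 Rpl39l (-0.11), and from E2C to L2C in replicates 1 to 3 Rpl8 (-0.17). The other alternatives reversed no called change of a member. Of the counts and levels compared, 322 moved by less than the limits used and 65 moved by more. Counts of members called are given over both directions. The count from 14 hpa to E2C (25) was 55 in replicates 1 to 3 alone. That from 4C to 8C (24) was 6 with TPM rescaled over named genes, 5 under quantile scaling, 38 and 3 in replicates 1 to 3 and 4 to 6 alone, and 15 to 28 with a library left out. That from 8C to the morula (1) was 0 with a pseudocount of 0.1, with all genes above 0 TPM, in replicates 4 to 6 alone and in the fit of SCNT libraries alone, and 0 to 1 with a library left out. The count from the morula to the ICM (41) was 26 under quantile scaling and 17 in replicates 4 to 6, that to the TE (30) was 17 under quantile scaling, and that between ICM and TE (0) was 1 in replicates 4 to 6. For the MOs, the Max count in the ICM (50) was 33 with the tissue fitted alone and 22 to 62 with a library left out. The Max count in the TE (4) was 2 with all genes, 1 under quantile scaling and 9 in the tissue alone, and no call held with a TE library left out. The Mcrs1 count in the ICM (10) was 4 with all genes, 6 rescaled, 6 under quantile scaling, 0 alone and 1 to 37 with a library left out, and in the TE (10) it was 6, then 5 under quantile scaling, 17 alone and 1 to 9. The count for the Max MO difference between TE and ICM (0) was 19 without ICM control replicate 2. Rescaled over named genes, the summed level was 5.19% in CC, 0.744% at 6 hpa, 1.12% at 14 hpa, 1.33% at E2C, 3.90% at L2C, 11.3% at 4C, 13.0% at 8C, 11.4% in the morula, 6.45% in the TE, and 4.20% and 4.56% in the TE after the Max and Mcrs1 MO. As deposited, without rescaling, it was 8.95% at 4C in replicates 4 and 5. The cause of these shifts was not tested.

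With the replicate number as a block, the counts were 79, 33, 25, 71, 76, 22, 1, 41, 30 and 0 for the steps in order and 48, 3, 10 and 9 for the MO comparisons. The block gained Rpl7l1 from 6 to 14 hpa and Rps12 from L2C to 4C, and lost Rps16 and Rps20 from 4C to 8C, Rpl22l1 and Rps15a after the Max MO in the ICM and Rps13 after the Mcrs1 MO in the TE, among others. Over all groups, deviations of same-numbered libraries correlated by -0.23 to 0.39 (median 0.08, 235 pairs, 100 of them above 0.1) in the course and by -0.04 to 0.13 (30 pairs) in the MO set. With 2 libraries per MO group, the 2 pairs of any 2 groups must give the same value, so the 30 are not separate values. For the paralogue ratios, of which 12 passed, 0 passed in paired sign-flip tests with this block, where 6 pairs give no p below 0.0313, and 0 in either replicate set alone. Libraries below 1 TPM for a member rest on few reads, and 2 libraries per MO group limit what a count of calls can show.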
